A study of Mus musculus with 9 samples.

Results

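The genes described here encode the cadherins, the adhesion molecule EpCAM and the desmosome proteins that hold the epithelial cells of the mammary gland to one another. They were Cdh1, Cdh3, Epcam, Dsp, Jup, Pkp1, Pkp2, Pkp3, Dsc2 and Dsg2, taken as every probe set annotated to one of these symbols alone. These 10 of the 18194 genes measured were covered by 24 probe sets. The study asked whether transient YAP expression turns differentiated luminal cells into cells like mammary stem cells (MaSCs). It profiled luminal cells and organoids from MaSCs and from the YAP-induced MaSC-like cells (yMaSCs). By hierarchical clustering of these profiles, it reported, the organoids from MaSCs and yMaSCs could not be told apart. RNA was hybridized to 9 Affymetrix mouse arrays in 3 groups of 3 biological replicates, lettered A, B and C. The LD cells (labeled Lum) were luminal differentiated cells, sorted as EpCAM-high, CD49f-low and CD61-negative from glands of young adult virgin C57BL/6J mice and taken fresh. The MaSC organoids (Org) came from mammary stem cells, whose enriched fraction was sorted as EpCAM-low, CD49f-high and CD61-positive. The yMaSC organoids (yOrg) came from LD cells in which YAP was expressed transiently from a doxycycline-inducible lentiviral vector together with its transactivator, and they were maintained without doxycycline. Both kinds of organoid were embedded in Matrigel with EGF, bFGF, heparin, noggin and R-Spondin1. In a comparison of MaSC organoids with LD cells, origin and culture therefore cannot be told apart. For yMaSC organoids, culture cannot be told apart from lentiviral transduction and transient YAP expression. The same LD arrays serve both comparisons.

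Classical cadherins such as E-cadherin reach across the gap between neighboring cells at adherens junctions and bind catenins inside the cell, which tie them to actin. Desmosomes are a second type of junction, in which desmogleins and desmocollins are the cadherins, the armadillo proteins plakoglobin and plakophilin lie beneath them, and desmoplakin connects the plaque to keratin filaments. In the mammary gland, E-cadherin is the principal cadherin of luminal cells and P-cadherin that of the myoepithelium, and desmosomes join cells both within and between these layers. EpCAM is a transmembrane protein of epithelia that is used to sort luminal from basal mammary cells.

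Values are on the log2 scale after RMA normalization, and the arrays had medians of 5.11 to 5.15 and lower quartiles of 3.47 to 3.59. The groups bore out their labels for the lineage genes. The luminal keratin gene Krt8 had a mean of 14.19 in LD cells and 13.26 and 13.29 in MaSC and yMaSC organoids, and Trp63, which encodes the basal factor p63, had means of 3.84, 8.83 and 8.80. Of the luminal markers, 5 of 6 were lower in both kinds of organoid, and of the basal markers 5 of 7 were higher in MaSC and 6 of 7 in yMaSC organoids. All 5 measured leukocyte markers were lower in both kinds of organoid, and their mean on each array was 6.07 to 6.82 in LD cells, 4.39 to 4.72 in MaSC organoids and 4.27 to 4.41 in yMaSC organoids. Ptprc, the pan-leukocyte gene, had a mean of 8.53 in LD cells although a lineage cocktail was part of the sort, and 2.83 in both kinds of organoid. LD array B stood apart from LD arrays A and C in endothelial and fibroblast genes, with 6.32 for the endothelial cadherin Cdh5 against 3.35 and 3.27, and 9.55 for the collagen gene Col3a1 against 7.01 and 6.0. Among the organoids, those of letter C stood apart in the proliferation gene Mki67, at 8.37 and 8.30 against 4.88 to 5.39 on the others. LD arrays A, B and C read 8.82, 6.09 and 8.36 for Mki67, so high values were not particular to letter C. In bulk RNA, fewer cells of a type and less RNA per cell cannot be told apart.

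Most of these junction genes were lower in organoids than in LD cells, and none was higher. By limma with Benjamini-Hochberg adjustment over all genes, at an adjusted p under 0.05, 6 of the 10 were lower in MaSC organoids, against 15.2% of all genes, and 7 of 10 were lower in yMaSC organoids, against 14.3% of all genes. With each array shifted to a common median of its gene values, 8 of the 10 were lower in each kind of organoid. The shares of all genes were then 38.4% and 38.1%. This shift moved the median difference of all genes from -0.02 and -0.01 to -0.27 in both comparisons. The array medians of 5.11 to 5.15 lie closer together than that, so they were not the medians aligned. As deposited, none of the 10 was called higher, where 22.1% and 21.6% of all genes were. The median log2 difference of the 10 genes was -0.74 in MaSC organoids and -0.79 in yMaSC organoids, beside medians over all genes of -0.02 and -0.01. In 7 of 10 genes every MaSC organoid array lay under every LD array, which held for 21.3% of all genes, and in 8 of 10 every yMaSC organoid array did, which held for 19.9%. Of the 24 probe sets, 15 were called lower in MaSC organoids, against 16.0% of all probe sets, and 16 in yMaSC organoids, against 15.4%. Without LD array B, 6 genes were called lower in MaSC organoids and 5 in yMaSC organoids, against 15.1% and 14.6% of all genes. The genes lost were Dsc2 and Pkp1, both in yMaSC organoids. The leukocyte and luminal markers above were lower in organoids too. Of 5 fibroblast markers, Col3a1 (-4.75 and -4.79) and Lum (-2.59 and -2.28) were called lower and Pdgfra (2.53 and 2.10) higher in both comparisons. The part of these markers in the differences was not tested.

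**Figure D1:**
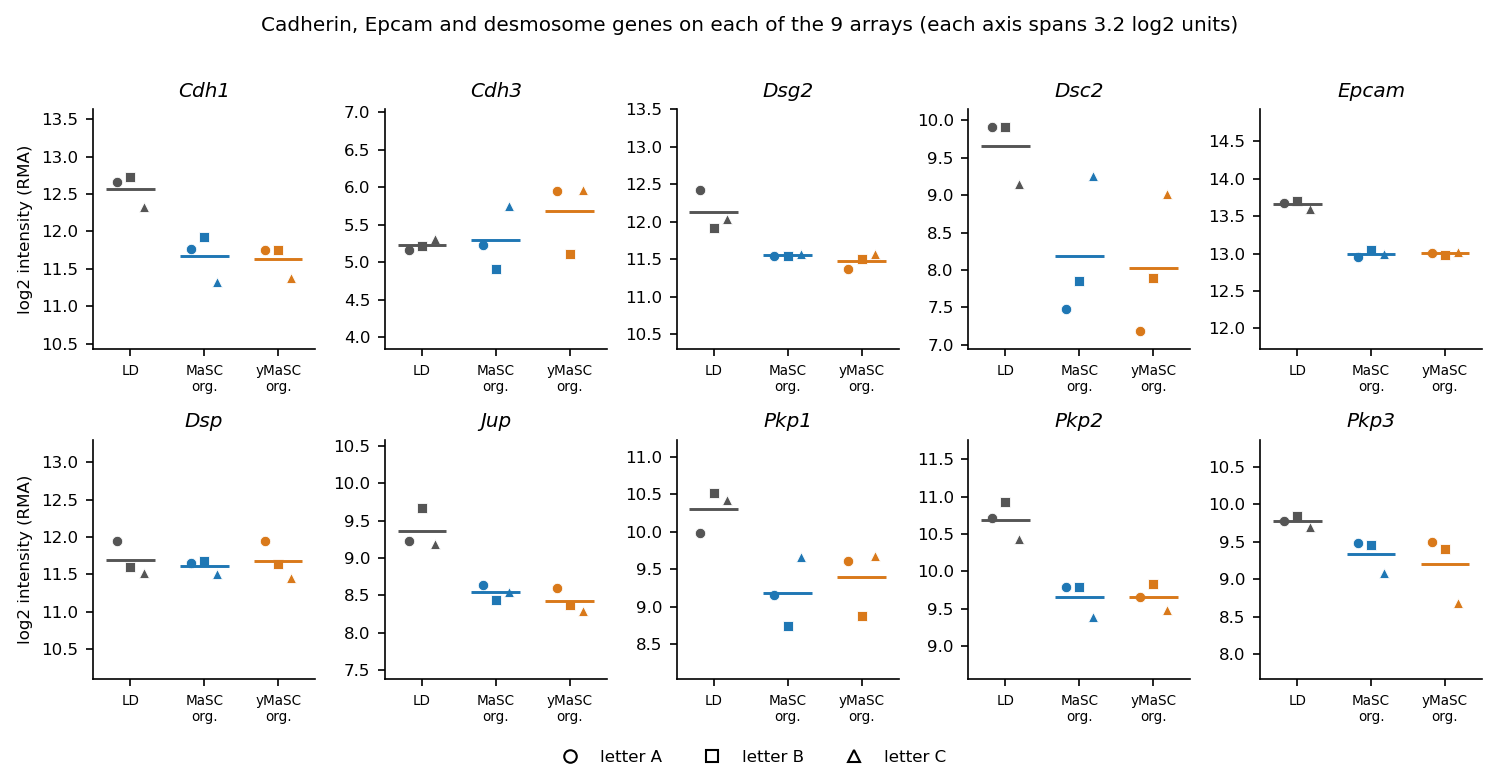
Log2 RMA intensity of the 10 genes (vertical axis of each panel, all panels spanning the same number of log2 units) in LD cells, MaSC organoids and yMaSC organoids. Each symbol is one array, its shape gives the replicate letter, and horizontal lines are group means: all 6 organoid arrays lie under all LD arrays for Cdh1, Dsg2, Epcam, Jup, Pkp1, Pkp2 and Pkp3, while the groups overlap for Cdh3 and Dsp, and the letter C organoids stand high for Dsc2.

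Among the classical cadherins, E-cadherin RNA was lower in organoids and P-cadherin RNA was not called. Cdh1, which encodes E-cadherin, read 12.66, 12.73 and 12.33 on LD arrays A, B and C, 11.76, 11.92 and 11.33 in MaSC organoids and 11.75, 11.75 and 11.38 in yMaSC organoids. The lowest LD array was above the highest organoid array, and the letter C array was the lowest of each group. Cdh1 was 1.87-fold lower in MaSC organoids (log2 difference -0.90, SE 0.186, limma adjusted p = 0.00484) and 1.93-fold lower in yMaSC organoids (-0.95, adjusted p = 0.00398). Cdh3 encodes P-cadherin, and the gene is the neighbor of Cdh1 on the chromosome. Its brighter probe set read 5.16, 5.22 and 5.31 in LD cells, 5.23, 4.91 and 5.75 in MaSC organoids and 5.95, 5.11 and 5.97 in yMaSC organoids. On average over the 9 arrays it lay under the median of all probe sets with 1 gene, so its signal was weak. The groups overlapped, and neither difference passed the test (0.07, 95% interval -0.54 to 0.68, and 0.45, interval -0.16 to 1.06). Without yMaSC organoid array B the second difference was 0.73 with an adjusted p of 0.0447. The other Cdh3 probe set read 3.24 to 3.55 on all 9 arrays, near the lower quartiles of the arrays, and says little about the gene.

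The desmosomal cadherins Dsg2 and Dsc2, which lie in one cluster of desmoglein and desmocollin genes, showed different patterns. Dsg2 encodes desmoglein 2, the desmoglein of simple epithelia. Its brightest probe set read 12.43, 11.92 and 12.04 in LD cells, 11.54, 11.54 and 11.57 in MaSC organoids and 11.37, 11.50 and 11.57 in yMaSC organoids. The organoid arrays lay close together and under every LD array, at 1.5-fold (log2 -0.58, SE 0.137, adjusted p = 0.00953) and 1.57-fold lower (-0.65, adjusted p = 0.00564). All 6 probe sets of Dsg2 were called lower in both kinds of organoid, by -1.23 to -0.42 log2 in MaSC organoids and by -1.33 to -0.58 in yMaSC organoids. On each of the 6, LD array A was the highest and LD array B the lowest of the LD arrays. Dsc2, which encodes desmocollin 2, read 9.91, 9.91 and 9.15 in LD cells, 7.48, 7.85 and 9.25 in MaSC organoids and 7.18, 7.90 and 9.01 in yMaSC organoids. The letter A and B organoids were far under LD cells, whereas the letter C organoids were at the level of LD array C. The difference was 2.76-fold in MaSC organoids (-1.46, SE 0.549), which did not pass (adjusted p = 0.0666), and 3.09-fold in yMaSC organoids (-1.63), which did (adjusted p = 0.0469). Without both letter C organoids the differences were -1.99 (adjusted p = 0.00258) and -2.12 (adjusted p = 0.00205). This setting was added after seeing the data and removes the organoid arrays where Dsc2 read highest. Its lower adjusted p values therefore say little about the gene. The MaSC difference also passed without MaSC or yMaSC organoid array C alone (adjusted p = 0.0156 and 0.0378), again by leaving out a high array. The yMaSC call was lost without any one LD array (adjusted p = 0.121, 0.117 and 0.055 without A, B and C), without MaSC organoid array B (0.0631) and without yMaSC organoid array A or B (0.153 and 0.12). The second Dsc2 probe set read 8.33, 7.76 and 7.72 in LD cells, 6.16, 6.62 and 7.74 in MaSC organoids and 5.86, 6.47 and 7.56 in yMaSC organoids. It had the same order within each kind of organoid, and neither of its differences passed (-1.10 and -1.31, adjusted p over all probe sets 0.115 and 0.068).

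Epcam had the smallest SE of the 10 genes. Its brighter probe set read 13.68, 13.70 and 13.60 in LD cells, 12.95, 13.05 and 12.99 in MaSC organoids and 13.01, 12.98 and 13.02 in yMaSC organoids. The organoids were 1.58-fold lower in both cases (-0.66, SE 0.083, adjusted p = 0.000355 and 0.000406). LD cells were sorted for high EpCAM protein, so this difference lies in the direction of the gate. The dimmer probe set, of a type that can also bind other transcripts, gave -0.67 in both comparisons (adjusted p = 0.0161 and 0.0169).

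Desmoplakin RNA, from Dsp, was not called in either comparison. Its brightest probe set read 11.95, 11.60 and 11.52 in LD cells, 11.65, 11.68 and 11.50 in MaSC organoids and 11.95, 11.64 and 11.45 in yMaSC organoids. The groups overlapped throughout. The differences were -0.08 (95% interval -0.44 to 0.28) and -0.01 (interval -0.37 to 0.35), so a fall of the size measured for Jup, Pkp2 or Cdh1 lies outside both intervals. The second probe set gave -0.21 and -0.06. The third, which read 5.12 on LD array B and 6.31 to 6.86 on the other 8 arrays, gave 0.35 and 0.53, and none of these differences passed the test.

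Of the 4 armadillo genes among the 10, Jup, Pkp1 and Pkp2 were called lower and Pkp3 was not. Jup encodes plakoglobin, a relative of beta-catenin found in both desmosomes and adherens junctions. It read 9.23, 9.67 and 9.19 in LD cells, 8.64, 8.44 and 8.54 in MaSC organoids and 8.60, 8.37 and 8.29 in yMaSC organoids. No organoid array reached the LD range, and the gene was 1.77-fold lower in MaSC organoids (-0.82, SE 0.15, adjusted p = 0.00259) and 1.92-fold lower in yMaSC organoids (-0.94, adjusted p = 0.00134). The probe sets used for Dsp, Jup and Pkp2 are of a type whose probes can match more than one transcript. Plakophilins bind the tails of desmosomal cadherins and desmoplakin. Pkp2 read 10.71, 10.93 and 10.44 in LD cells, 9.79, 9.79 and 9.39 in MaSC organoids and 9.66, 9.83 and 9.48 in yMaSC organoids. Its difference was -1.04 in both (2.05-fold lower, SE 0.168, adjusted p = 0.0014 and 0.00148), and all 4 of its probe sets were called lower in both kinds of organoid, by -1.37 to -0.98 and -1.41 to -0.72 log2.

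Pkp1, the plakophilin best known from stratified epithelia, read 9.98, 10.52 and 10.43 in LD cells, 9.15, 8.74 and 9.66 in MaSC organoids and 9.61, 8.88 and 9.68 in yMaSC organoids. The letter B organoids were the lowest, and the highest organoid array was still under the lowest LD array. Pkp1 was 2.18-fold lower in MaSC organoids (-1.13, SE 0.286, adjusted p = 0.0137) and 1.89-fold lower in yMaSC organoids (-0.92, adjusted p = 0.0342). Without MaSC organoid array B the first was -0.91 and no longer passed (adjusted p = 0.0505). The second was lost without LD array B (-0.82, adjusted p = 0.0962), LD array C (0.0941), MaSC organoid array A (0.0531) or yMaSC organoid array A or B (0.0503 and 0.113). Pkp3 read 9.78, 9.84 and 9.70 in LD cells, 9.48, 9.46 and 9.09 in MaSC organoids and 9.50, 9.41 and 8.69 in yMaSC organoids. Its groups did not overlap, yet neither -0.43 (adjusted p = 0.148) nor -0.57 (adjusted p = 0.0647) passed, the letter C organoids lying under those of letters A and B. The first passed without yMaSC organoid array C (adjusted p = 0.0302) and the second without yMaSC organoid array A (-0.72, adjusted p = 0.0426). The second Pkp3 probe set gave -0.32 and -0.28, with groups that overlapped.

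**Figure D2:**
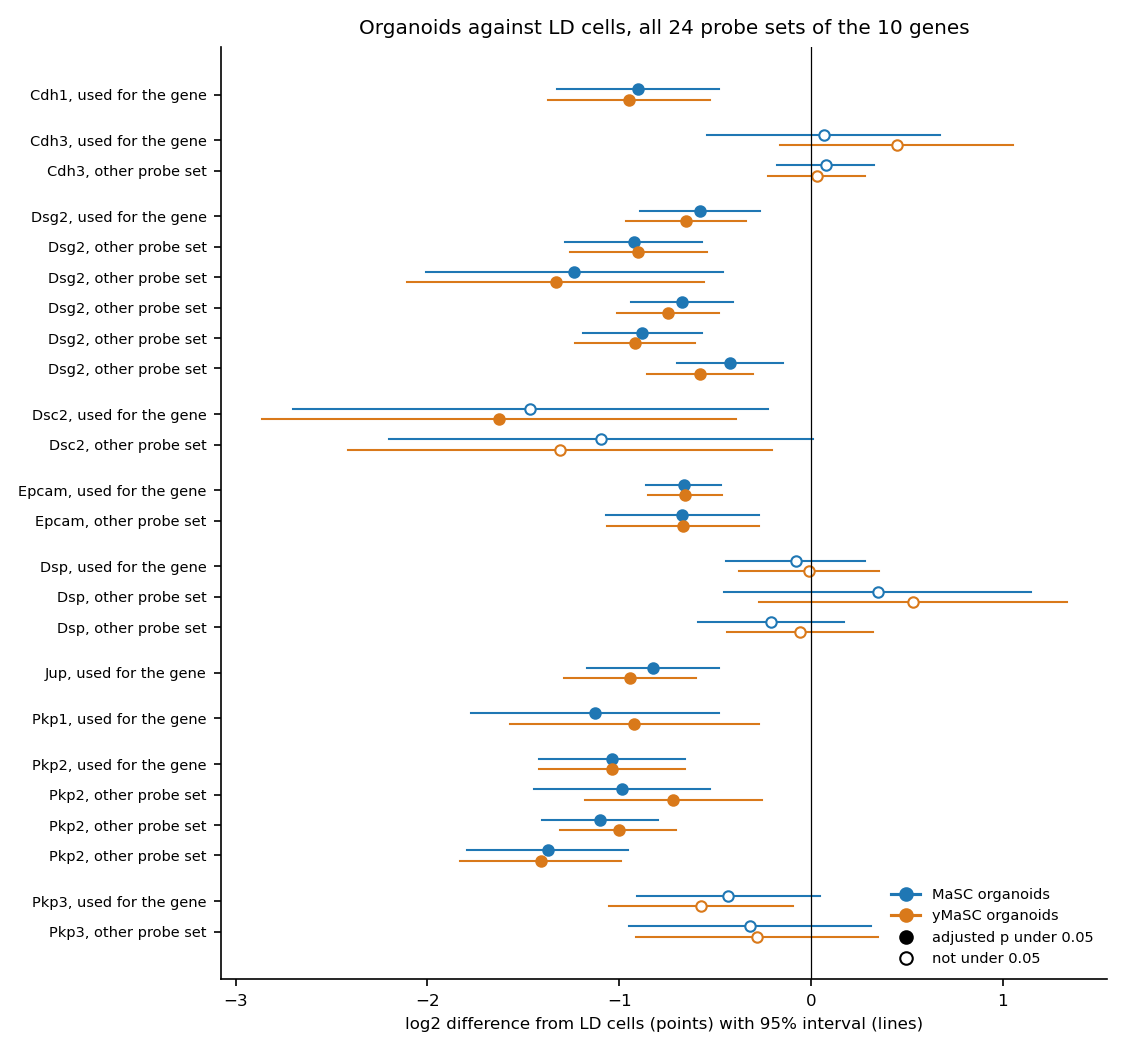
Log2 difference of MaSC organoids (blue) and yMaSC organoids (orange) from LD cells for each of the 24 probe sets (points) with 95% intervals (lines). Filled points passed an adjusted p of 0.05 over all probe sets: all 6 of Dsg2, all 4 of Pkp2 and both of Epcam are filled, and none of the 3 of Dsp is.

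The promoters of Epcam, Dsp and Jup are shown, since a promoter sequence was at hand for these 3 of the 10 genes. Epcam and Jup were lower in organoids and Dsp was not called. The 3 sequences are the bases before the annotated start in RefSeq on GRCm38.p6, at chr17:87635729-87635978 (plus strand) for Epcam, chr13:38151044-38151293 (plus strand) for Dsp and chr11:100397840-100398040 (minus strand) for Jup, whose remaining searched bases lie inside an annotated gene. Capitals mark CAGGTG or its reverse complement CACCTG, the E-box letters that Snail-family factors bind.
Epcam: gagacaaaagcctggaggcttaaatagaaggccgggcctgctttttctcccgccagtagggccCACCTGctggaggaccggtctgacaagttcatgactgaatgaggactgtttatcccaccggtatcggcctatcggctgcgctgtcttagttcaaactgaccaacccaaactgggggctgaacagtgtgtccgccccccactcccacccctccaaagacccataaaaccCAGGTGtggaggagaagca
Dsp: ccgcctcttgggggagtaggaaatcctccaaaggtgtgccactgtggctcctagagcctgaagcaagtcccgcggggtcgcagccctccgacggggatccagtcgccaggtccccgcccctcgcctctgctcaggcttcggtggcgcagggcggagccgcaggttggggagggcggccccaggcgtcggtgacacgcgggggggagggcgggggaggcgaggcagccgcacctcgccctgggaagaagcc
Jup: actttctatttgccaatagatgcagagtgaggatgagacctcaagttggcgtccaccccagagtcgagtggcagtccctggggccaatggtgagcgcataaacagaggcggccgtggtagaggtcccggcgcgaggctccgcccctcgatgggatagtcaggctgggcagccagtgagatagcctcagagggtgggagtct
In the 250 bases before the start, searched on both strands, CAGGTG was in 17.2% of 32851 promoters, and Epcam held 2 matches while Dsp and Jup held none. The letters AACCGG, a grainyhead core, and GGAATG, a TEAD core, were in 5.62% and 12.6% of promoters and in none of these 3. The GC content of the 250 searched bases was 56.4% for Epcam, 72.4% for Dsp and 62.0% for Jup, beside a median of 52.4% over all promoters. A match is a run of letters and not a bound site.

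Between the organoids, none of the 10 genes was called, and neither was any of the 18194 genes (0.0%). By limma, 104 of all genes and none of the 10 had an unadjusted p under 0.05, and every adjusted p was 1.0. The median difference of the 10 genes, yMaSC minus MaSC organoids, was -0.02. For 9 of 10 genes the 95% interval of the difference lay within 1 log2 in either direction, as it did for 16954 of all genes. The intervals were narrowest for Epcam (0.01, interval -0.18 to 0.20), and those of Dsg2 (-0.07, -0.38 to 0.24), Jup (-0.12, -0.46 to 0.22), Dsp (0.07, -0.29 to 0.43), Pkp2 (0.00, -0.38 to 0.38) and Cdh1 (-0.04, -0.47 to 0.38) stayed within 0.5 log2. Without the letter in the fit, Dsc2 was the exception (-0.16, interval -1.41 to 1.09). Compared letter by letter, Dsc2 differed between the organoids by -0.30, 0.05 and -0.24 for letters A, B and C, while its values spanned 7.18 to 9.25 over the 6 organoid arrays. Cdh3 had the largest difference (0.38, interval -0.23 to 0.99), higher in yMaSC organoids by 0.72, 0.20 and 0.22. With the letter, which pairs the organoids, as a replicate block in the 6 organoid arrays alone, the intervals of all 10 genes lay within 1 log2, that of Dsc2 being -0.41 to 0.09. Cdh3 then had an interval of 0.06 to 0.70 (limma unadjusted p = 0.0288, adjusted p = 0.964). In this fit 597 of all genes had an unadjusted p under 0.05 and 0 passed the adjustment.

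Organoids of the same letter resembled each other across the 2 kinds. The spread within a kind of organoid was therefore examined by letter, with the kind as a term in the fit of the 6 organoid arrays. With 1 probe set per gene, Dsc2 was the one of the 10 genes that differed by letter (limma F test, adjusted p = 0.00805), where 5.52% of all genes did, and both of its probe sets were called over all probe sets (adjusted p = 0.00849 and 0.00745). The mean of the letter C organoids was 1.53 log2 above the mean of letters A and B for Dsc2. It was 0.58 above for Pkp1, 0.56 above for Cdh3, and -0.44 and -0.57 for Cdh1 and Pkp3, none of which passed (adjusted p = 0.051, 0.073, 0.0886 and 0.0907). The second Pkp3 probe set did pass over all probe sets (adjusted p = 0.0368), with letter C -0.82 from letters A and B. The other desmosomal cadherin, Dsg2, read 11.37 to 11.57 over all 6 organoid arrays (adjusted p = 0.709), and Epcam read 12.95 to 13.05 (adjusted p = 0.959). The call of Dsc2 was lost when any 1 organoid array was left out. Such a fit has 1 array of the letter concerned, so this loss says little about Dsc2. The proliferation genes Mki67 and Top2a also differed by letter (adjusted p = 0.00153 and 0.00408), higher in letter C, and their part in the Dsc2 values was not tested.

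**Figure D3:**
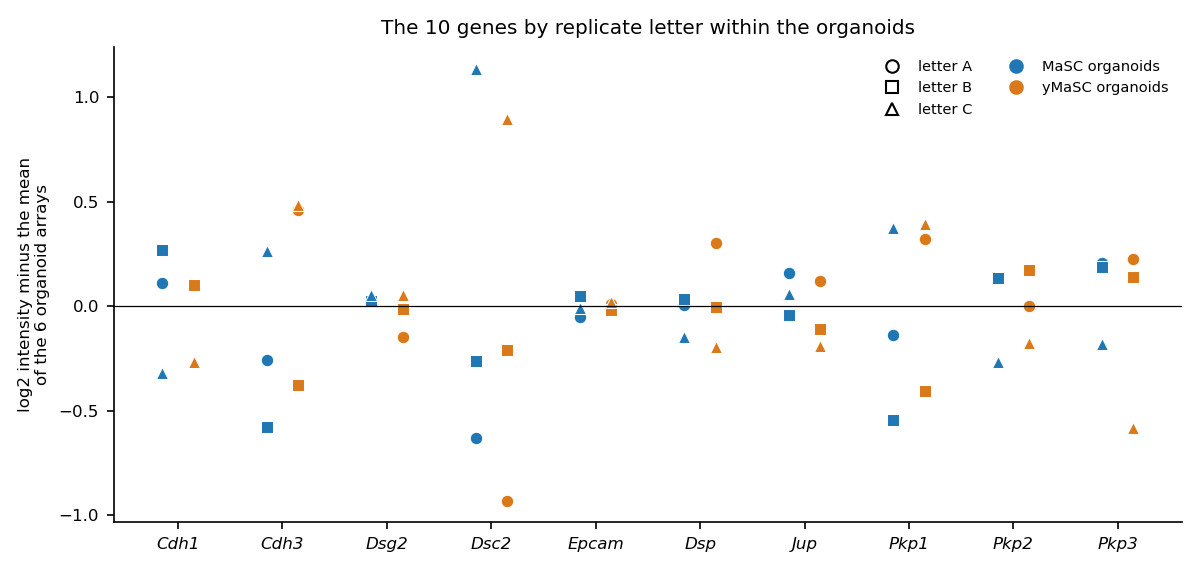
Log2 intensity of the 10 genes on each organoid array minus the mean of the 6 organoid arrays, with the replicate letter as symbol shape and the kind of organoid as color. The letter C arrays stand highest for Dsc2 in both kinds, while the 6 arrays of Epcam and Dsg2 lie close to 0.

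Lists of other junction genes gave mixed counts. Of 10 further desmosome genes measured, 1 was called lower and 0 higher in MaSC organoids, and none was called in yMaSC organoids, with median differences of -0.24 and -0.13. Over all genes, 15.2% and 14.3% were called lower and 22.1% and 21.6% higher. Dsc1, Dsg1a and Dsg1b had group means of 2.22 to 3.04, under the lower quartiles of the arrays, and Dsc3 had 3.83 to 3.92. At such levels readings follow RNA level poorly, so the count says little about these genes, which are named after their values were seen. The gene called was Cdsn, which encodes corneodesmosin (-0.57, adjusted p = 0.0237, and -0.43, adjusted p = 0.0726). Pkp4, a further plakophilin-related gene, read 9.51 to 9.63 in LD cells, 9.67 to 10.24 in MaSC organoids and 9.57 to 10.12 in yMaSC organoids, and was not called (0.46, adjusted p = 0.095, and 0.38, adjusted p = 0.164). Like it, Ppl and Evpl, which encode the plakins periplakin and envoplakin, differed by letter (adjusted p = 0.0476 for Pkp4, 0.0124 for Ppl and 0.0279 for Evpl), and these 3 are named after their values were seen. Ppl read 7.61 and 7.72 in the letter C organoids and 8.43 to 8.77 in the others, the opposite direction to Dsc2.

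Of 12 partners of E-cadherin at adherens junctions, 3 were called higher and 3 lower in each kind of organoid, with medians of -0.005 and -0.03. These counts stand beside 22.1% and 21.6% of all genes called higher and 15.2% and 14.3% called lower. Vcl, which encodes the actin linker vinculin, was lower (-1.44, adjusted p = 9.84e-05, and -1.33, adjusted p = 0.000161), as was Nectin2 (-1.29 and -1.38). Nectin3 was higher (1.76, adjusted p = 0.0014, and 1.59, adjusted p = 0.00259), as was Lima1, which encodes an actin-binding partner of alpha-catenin (1.22 and 0.997, adjusted p = 0.0123 and 0.0308). The nectins, immunoglobulin-like adhesion molecules that sit beside cadherins, therefore included members called in opposite directions. Of 14 other classical and related cadherins, 1 was called higher and 3 lower in MaSC organoids, and 1 higher and 2 lower in yMaSC organoids. Cdhr1, a cadherin-related gene known from photoreceptors, was the one called higher (3.65, adjusted p = 0.000584, and 3.69, adjusted p = 0.000591). Cdh13, which encodes T-cadherin, was lower (-1.52 and -1.81, adjusted p = 0.023 and 0.0109), and Cdh17 and Celsr1 made up the rest, Celsr1 not passing in yMaSC organoids (-0.59, adjusted p = 0.104). Cdh2, which encodes N-cadherin and is named here after its values were seen, differed by letter (adjusted p = 0.0188), with 7.80 and 7.19 in the letter C organoids, 4.09 to 5.79 in the others and 3.73 to 5.33 in LD cells.

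Of 4 measured genes whose products act with EpCAM, 3 were lower in each kind of organoid, with medians of -0.74 and -0.77. Of all genes, 15.2% were called lower in MaSC organoids and 14.3% in yMaSC organoids. They were Cldn7, a claudin that binds EpCAM (-1.25, adjusted p = 0.00027, and -1.13, adjusted p = 0.000514), St14, the protease matriptase that cleaves EpCAM (-0.67 and -0.69), and Spint1, an inhibitor of matriptase (-0.80 and -0.84). The fourth, Spint2, which encodes another protease inhibitor and is named after its values were seen, was not called (0.31, adjusted p = 0.136, and 0.26, adjusted p = 0.221).

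Among 6 repressors of E-cadherin transcription, 1 was called higher and 1 lower in each kind of organoid. This count and that of the regulators below stand beside 22.1% and 21.6% of all genes called higher and 15.2% and 14.3% lower. Snai2, which encodes Slug, read 3.70 to 4.15 in LD cells and 7.21 to 9.09 in organoids (3.93, adjusted p = 0.000233, and 3.96, adjusted p = 0.000238). Its LD values lie near the lower quartiles of the arrays, where readings follow RNA level poorly, so the size of its difference is uncertain. It is also, like Trp63, a gene of basal mammary cells. Zeb1 was lower (-0.58, adjusted p = 0.00882, and -0.53, adjusted p = 0.014), from 4.84 to 5.07 in LD cells to 4.23 to 4.59 in organoids. All 9 of its values lie under the medians of the arrays, so the size of its difference is uncertain too. Of 9 regulators of epithelial identity, 3 were called higher and 3 lower in MaSC organoids, and 2 higher and 3 lower in yMaSC organoids. Ovol1 (-3.33 and -3.25), Klf5 (-3.06 and -2.85) and Elf3 (-1.37 and -1.47), all transcription factors of epithelia, were lower, whereas Grhl2, a grainyhead-like activator of Cdh1, was higher (1.33, adjusted p = 0.000299, and 1.14, adjusted p = 0.000711).

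**Figure D4:**
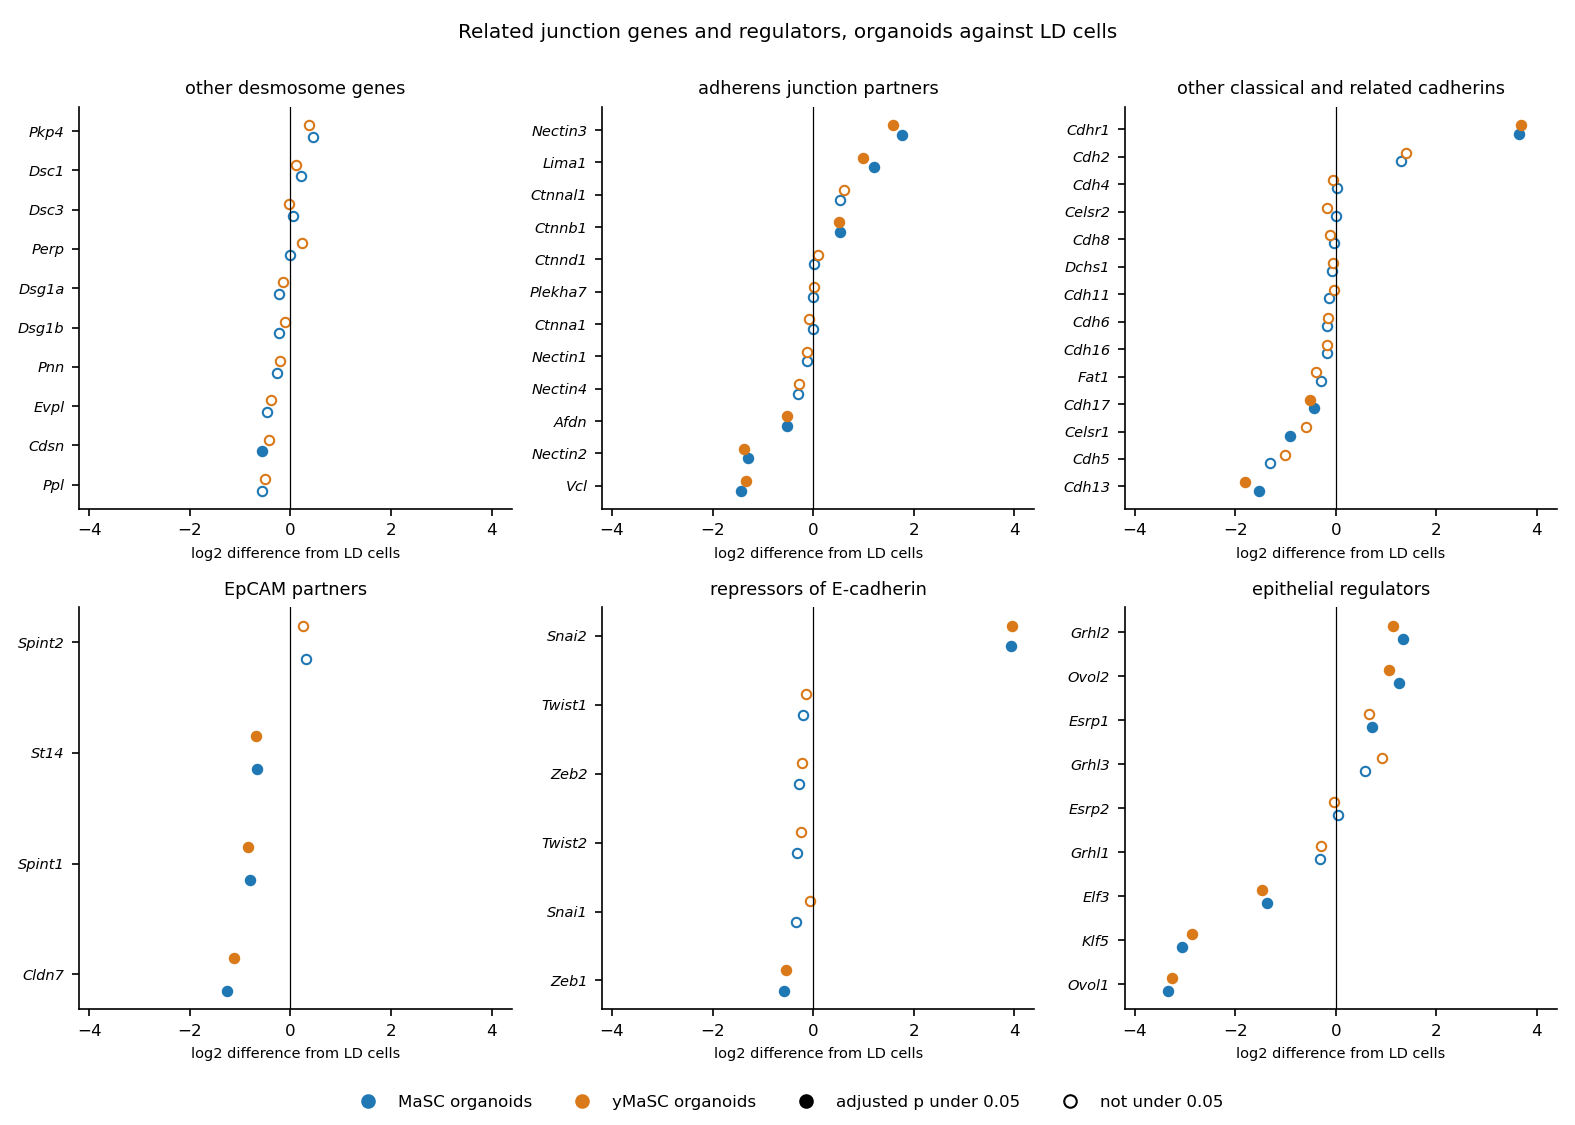
Log2 difference of MaSC organoids (blue) and yMaSC organoids (orange) from LD cells for the measured genes of 6 related lists, one point per gene and kind of organoid. Filled points passed an adjusted p of 0.05 over all genes: 3 of 4 EpCAM partners are filled on the lower side, adherens junction partners are filled on both sides, and among other desmosome genes Cdsn is filled for MaSC organoids alone.

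The genes with the pattern most like that of Dsc2, Pkp1 and Pkp2, the 3 members with the widest range over the 9 arrays, were sought by the root mean square distance between gene-centered log2 values among 7129 genes with a range of at least 1 log2. Dsc2, with a range of 2.73 log2, was nearest to Ccbe1 (0.217), Egr2 (0.296) and Isg20 (0.341). Pkp1, with a range of 1.78, was nearest to Ntng1 (0.194), Zfp131 (0.200) and Edn3 (0.207). Pkp2, with a range of 1.54, was nearest to Kctd9 (0.085), Cdh1 (0.095) and Tollip (0.096). Cdh1 was thus the only other gene of the 10 to appear among these neighbors.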

How the data were processed

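Total RNA was extracted with Trizol, turned into biotinylated cRNA and hybridized to Affymetrix arrays. The deposited values are log2 intensities that the authors computed by RMA (version not given in the sources used here). Platform annotation pairs 34958 of 45101 probe sets with 1 gene each, 932 with several genes and 9211 with none listed. Each gene was represented by its brightest probe set on average over the 9 arrays, and a second fit took every probe set with 1 gene. No filter on low values was applied. Linear models with the 3 groups were fitted in R 4.3.3 with limma 3.58.1 (lmFit and eBayes) and adjusted over all features by Benjamini-Hochberg, with a call at an adjusted p under 0.05. Fits were tested on simulated data. The number of arrays limits the precision. Letters paired the organoids alone (correlation of deviations from group means 0.607, 0.611 and 0.649 between the 2 kinds, and -0.046 to 0.045 between LD cells and organoids). The genes and related lists were chosen with earlier results of these data known. From each related list, at most 4 called genes with the largest differences were named. Alternatives were the letter as a replicate block, the 2 groups alone, the mean of probe sets, a filter on low values, a common median, quantile normalization, a trended and robust prior, array weights, leaving out each array and, added after seeing the data, leaving out both letter C organoids. Promoters were matched by symbol outside chromosome 18, where Dsg2 and Dsc2 lie, and 3 of the other members had one.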

Additional observations from a re-analysis of the deposited data

How the results depend on the processing

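Cdh1, Dsg2, Epcam, Jup and Pkp2 kept their calls in both comparisons with LD cells under all 18 alternatives run. The number called lower was 5 to 8 in MaSC organoids and 5 to 8 in yMaSC organoids over these. The share of all genes called lower moved too, from 11.1% to 38.4% and from 10.8% to 38.1%. It was highest with a common median. The number of the 10 genes called higher in yMaSC organoids was 0 to 1 over arrays left out. With a common median the median of all genes shifted to -0.27 in both comparisons and calls split into 3001 higher and 6992 lower for MaSC organoids and 2798 and 6930 for yMaSC organoids, against 4028 and 2762, and 3927 and 2603, as deposited. After quantile normalization they were 3437 and 3327, and 3326 and 3273. With the letter as a replicate block over all arrays, Pkp3 passed in yMaSC organoids (-0.57, adjusted p = 0.0211), and no other call in the comparisons changed. Letters did not pair LD cells with organoids (correlations -0.046 to 0.045), so this block is not suited to the LD arrays. The number of the 10 genes that differed by letter was 2 with the filter on low values and 2 after quantile normalization. It was 3 with the trended and robust prior. The shares of all genes under these settings are not given, so the shifts cannot be ascribed to the 10 genes. With an organoid array left out, its letter has a single array, so those fits are not counted here.

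Uncalled differences near 0 changed sign. Cdh3 in MaSC organoids was -0.18 with a common median, -0.004 after quantile normalization, -0.038 with array weights, -0.16 without both letter C organoids and -0.16 to 0.26 over arrays left out. Dsp in MaSC organoids was 0.021 with the mean of probe sets and -0.165 to 0.05 over arrays left out. Dsp in yMaSC organoids was 0.156 with the mean of probe sets, 0.008 after quantile normalization, 0.028 with array weights, 0.105 without both letter C organoids and -0.145 to 0.12 over arrays left out. Between the organoids, the ranges over arrays left out were -0.213 to 0.082 for Cdh1, -0.653 to 0.365 for Dsc2, -0.065 to 0.185 for Dsp, -0.017 to 0.033 for Epcam, -0.015 to 0.462 for Pkp1 and -0.293 to 0.112 for Pkp3. Epcam was -0.003 with a common median, 0.000 after quantile normalization and -0.005 without both letter C organoids. Dsc2 in yMaSC organoids lost its call with the mean of probe sets (-1.47, adjusted p = 0.0543) and with the trended and robust prior (adjusted p = 0.0555). It passed in MaSC organoids with the filter on low values (adjusted p = 0.0442), a common median (0.024) and array weights (0.0286). Pkp3 passed with a common median in both (adjusted p = 0.0367 and 0.0178) and in yMaSC organoids with the filter (0.0475) and after quantile normalization (0.0386). The cause of these changes was not tested.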
